A study of Mus musculus with 4 samples.

Results

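Genes for enzymes of the urea cycle and of amino acid breakdown were followed in livers of mice overdosed with acetaminophen, in animals labelled wildtype and in animals labelled YAP-KO. YAP is a coactivator of transcription held in check by the Hippo kinases. The set held 45 genes, listed by symbol, out of 30627 named genes on the array. Of the 45 genes, 41 had a probe set of their own and all 41 passed the filter on dim genes, which left 18380 genes in all. The probe set of Ass1 is annotated to Gm5424 as well, so its readings are given as those of a shared probe set. For Sds, Sdsl and Gls2 no probe set was named in the annotation used here, and they were not analysed.

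There were 4 groups, each measured on 1 array of RNA pooled from 3 male mice. The wildtype mice carried a floxed YAP allele, and the others are labelled YAP-KO. All mice were fasted. Livers at 0 h came from mice without overdose, and livers at 24 h from mice given 300 mg/kg acetaminophen intraperitoneally. The Cre driver, the deleted exons and the cells in which YAP was deleted are not given in the sources used here. No untreated array at 24 h was analysed, so the overdose cannot be told apart from time, handling or feeding.

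Amino acid breakdown strips nitrogen from amino acids by transamination, deamination or dedicated ring-opening reactions and sends the carbon skeletons to glucose, ketone bodies or the citric acid cycle. The urea cycle turns the released ammonia into urea, and the liver is the main organ that does so. Many of these enzymes are abundant in hepatocytes, several are zoned toward the portal vein, and their genes are known to respond to glucagon, glucocorticoids and fasting. The sulfur branch has a further link to acetaminophen, because it supplies cysteine for glutathione, the thiol that captures the reactive metabolite of the drug.

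Yap1 itself read 7.54 and 8.24 in wildtype at 0 h and 24 h, and 6.31 and 6.01 in YAP-KO, so both YAP-KO arrays were below both wildtype arrays. All values are deposited array values, taken to be on a log2 scale, in which a difference of 1 is 2-fold. Each array had an upper limit between 19.83 and 19.93. Tat lay within 0.01 of that limit on 3 arrays, and Cps1 within 0.05 of it on 3 arrays. A difference that starts from such a reading is given as "at least". Counts, medians and rankings take the readings of Tat and Cps1 as they stand. Since each group is a single array, no difference between arrays has a replicate check, and differences are described by size. The hepatocyte markers Alb, Apoa1, Ttr and Apob, which define the labelled tissue, lay at the upper limit on all 4 arrays, so a difference in them could not be read.

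Amino acid breakdown genes were lower 24 h after the overdose, and by more in wildtype than in YAP-KO. In wildtype 30 of 41 genes were at least 2-fold lower at 24 h, against 5.92% of all genes, and 1 was at least 2-fold higher, against 12.7%. Quantile normalization gave 32 and 1, against 7.10% and 9.65%. The median difference was -1.52, beside 0.07 over all genes. In YAP-KO 10 of 41 were at least 2-fold lower, against 2.22% of all genes, and 0 were higher, against 4.72%. Quantile normalization gave 14 and 0, against 2.57% and 3.66%. The median in YAP-KO was -0.65, beside 0.07. Among the 5383 genes at least as bright as the dimmest member, 12.8% were 2-fold lower in wildtype and 4.90% in YAP-KO. In bulk liver, fewer hepatocytes and less RNA per hepatocyte cannot be told apart.

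Markers of other cells also differed between 0 h and 24 h. Over all genes, 12.7% were at least 2-fold higher at 24 h in wildtype and 4.72% in YAP-KO. At least 2-fold lower were 5.92% and 2.22%. Of 10 macrophage and monocyte markers, 7 were at least 2-fold higher at 24 h in wildtype and 6 in YAP-KO, and their mean level went from 6.93 to 9.44 and from 6.85 to 8.62. Of 7 measured neutrophil markers, 4 and 3 were higher, with mean levels going from 5.28 to 7.35 and from 5.42 to 6.13. Ly6g and Camp went the other way in wildtype (-0.63 and -0.65), beside 0.09 and -0.15 in YAP-KO. The neutrophil markers Ltf and Ngp were below the filter. Of 6 endothelial markers, 3 were higher in wildtype and 1 in YAP-KO, with median differences of 0.64 and 0.74 and the largest wildtype values in Lyve1 (5.51) and Cdh5 (3.23). Their mean levels went from 9.45 to 10.97 and from 9.51 to 10.17. Of 7 stellate cell markers, 2 were higher in each genotype and 1, Lrat, was lower in wildtype (-1.32). Their median differences were -0.06 and 0.34, and Acta2 was highest (3.07 and 2.96), with mean levels going from 6.50 to 6.94 and from 6.62 to 7.20. Mean levels were between 5.11 and 5.72 for 4 cholangiocyte markers and between 5.10 and 5.41 for 3 lymphocyte markers. In each of these lists 1 marker was at least 2-fold higher in both genotypes, and none was as far lower. They were Sox9 (2.53 and 1.47) and Ptprc (1.23 and 1.08). The single erythroid marker that passed the filter, Alas2, read 12.10 and 9.86 in wildtype at 0 h and 24 h, and 11.70 and 9.84 in YAP-KO. Slc4a1, the other erythroid marker with a probe set of its own, was below the filter on average and read between 3.85 and 3.96. The part of these shifts in the breakdown genes was not tested.

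The only fit with a residual degree of freedom was an additive limma model of genotype and time over all 4 arrays. For 24 h against 0 h it called 0 of 41 members, and 0% of all genes, at a Benjamini-Hochberg adjusted p under 0.05. At an unadjusted p under 0.05 it took 16 of the 41, against 15.3% of all genes, and Cth came lowest with a difference of -2.60 ± 0.33 (SE, both genotypes lower) and an adjusted limma p of 0.285. For YAP-KO against wildtype it also called 0 members and 0% of genes, with 3 of 41 at an unadjusted p under 0.05, against 2.36%. Its single residual degree of freedom is the difference between the genotypes' responses, so genes that respond unequally have large errors in it.

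The extremes of the wildtype response were Kynu and Hal at the low end and Gpt2 at the high end. Promoter sequences were matched for 34 of the 45 genes in RefSeq (GRCm38.p6), each running from 250 bases before to 50 bases after the annotated start. Those of the 3 lowest genes with a sequence and of the highest gene are shown 5′ to 3′, so that the genes with opposite responses can be compared. Capitals mark every match, on either strand, to CCAAT, to TTGCNNAA (a C/EBP motif), to TGACGTCA (the cyclic AMP response element), to the palindromic consensus of the glucocorticoid response element, to CAAAGTCCA (an HNF4A motif) or to TATAAA. No 2 matches overlapped in these windows.
Hal promoter (GRCm38.p6, chr10:93488518-93488817, + strand): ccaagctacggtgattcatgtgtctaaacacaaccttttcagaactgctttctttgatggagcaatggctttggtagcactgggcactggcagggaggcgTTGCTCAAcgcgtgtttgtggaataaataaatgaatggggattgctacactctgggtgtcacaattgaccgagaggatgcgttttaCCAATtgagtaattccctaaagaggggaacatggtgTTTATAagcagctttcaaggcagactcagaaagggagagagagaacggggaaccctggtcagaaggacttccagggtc
Prodh promoter (GRCm38.p6, chr16:18089141-18089440, - strand): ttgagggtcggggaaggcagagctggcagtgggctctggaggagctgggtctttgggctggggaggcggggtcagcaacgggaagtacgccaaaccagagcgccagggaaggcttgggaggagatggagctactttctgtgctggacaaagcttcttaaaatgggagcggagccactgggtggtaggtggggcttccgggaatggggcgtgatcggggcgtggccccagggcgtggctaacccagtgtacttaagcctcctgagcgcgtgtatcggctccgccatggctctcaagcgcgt
Hgd promoter (GRCm38.p6, chr16:37579903-37580202, + strand): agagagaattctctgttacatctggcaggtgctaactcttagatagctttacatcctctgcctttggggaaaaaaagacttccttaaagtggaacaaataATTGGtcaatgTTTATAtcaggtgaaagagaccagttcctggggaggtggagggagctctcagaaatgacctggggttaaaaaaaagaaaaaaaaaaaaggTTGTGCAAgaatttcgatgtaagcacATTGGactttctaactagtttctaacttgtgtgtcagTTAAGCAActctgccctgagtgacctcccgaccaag
Gpt2 promoter (GRCm38.p6, chr8:85492326-85492625, + strand): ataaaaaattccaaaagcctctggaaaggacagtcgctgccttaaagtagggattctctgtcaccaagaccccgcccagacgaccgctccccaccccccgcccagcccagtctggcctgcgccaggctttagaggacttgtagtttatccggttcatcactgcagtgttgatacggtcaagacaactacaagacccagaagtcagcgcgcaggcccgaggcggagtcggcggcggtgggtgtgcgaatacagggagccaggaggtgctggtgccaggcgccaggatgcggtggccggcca
The Hal window held TTGCNNAA 150 bases, CCAAT 64 bases and TATAAA 28 bases before the start, and the Hgd window held matches to the same 3 motifs. In the windows of Prodh and Gpt2 no capitals appear. Members were counted by gene, with a match in any promoter of the gene, and the background by promoter. The genes tested had 13525 promoters for 10721 genes, and a gene with several promoters has more chances of a match. The member shares are thus not on the same unit as the others and were not compared by a test. Over all 34 genes, CCAAT was found in 18 (52.9%), against 37.4% of 32851 promoters of this length and 37.6% of those of the genes tested. TTGCNNAA was found in 4 (11.8%), against 10.8% and 9.63%. TATAAA was found in 4 (11.8%), against 13.6% and 9.06%, so its share was below the first and above the second. The cyclic AMP, glucocorticoid and HNF4A strings were found in 0 of 34, against 1.79%, 0.0487% and 0.475% of all promoters.

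Within the urea cycle the response was uneven. Cps1 makes carbamoyl phosphate from ammonia in mitochondria and commits nitrogen to the cycle. It read 19.84 and 19.08 in wildtype at 0 h and 24 h and 19.81 and 19.85 in YAP-KO, so the wildtype 24 h array stood apart, at least 0.76 below its 0 h array. Otc, which joins carbamoyl phosphate to ornithine, read 18.10 and 16.09 in wildtype and 17.80 and 17.15 in YAP-KO, a difference of -2.01 against -0.65. The shared Ass1 and Gm5424 probe set, covering the enzyme that joins citrulline to aspartate, read 19.17 and 18.20 in wildtype and 18.96 and 18.46 in YAP-KO. Asl splits argininosuccinate into arginine and fumarate. Its readings were 14.12 and 13.10 in wildtype and 13.46 and 12.36 in YAP-KO, so it was lower at 24 h by similar amounts in both genotypes, -1.02 and -1.10. Arg1, which releases urea from arginine, stayed between 16.56 and 16.69 on all 4 arrays.

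Of the 3 genes grouped under glutamine and transamination, Gpt2 and Got1 departed from the pattern of most genes. Gpt2, the mitochondrial alanine aminotransferase, read 12.79 and 14.68 in wildtype at 0 h and 24 h and 12.82 and 11.71 in YAP-KO. The genotypes were alike at 0 h and stood 2.97 apart at 24 h, with wildtype higher. Gpt2 was the 1 gene of the 41 at least 2-fold higher in wildtype, where 617 of 18380 genes had a larger positive difference, and it was 2-fold lower in YAP-KO. Its cytosolic counterpart Gpt went the usual way, reading 8.73 and 7.89 in wildtype and 8.61 and 8.28 in YAP-KO. Got1, the cytosolic aspartate aminotransferase, read 14.93 and 14.67 in wildtype but 14.99 and 13.43 in YAP-KO. At 24 h, Got1 and Gpt2 were the 2 genes whose YAP-KO reading was at least 2-fold below the wildtype one (-1.24 and -2.97).

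Histidine breakdown is a 4-step path, and all 4 genes were at least 2-fold lower at 24 h in wildtype, with a median of -2.35, beside -0.88 in YAP-KO. Hal, which removes ammonia from histidine, read 14.80 and 10.64 in wildtype and 14.31 and 12.88 in YAP-KO. That is 17.9-fold lower in wildtype, and 38 of 18380 genes had a lower difference. Uroc1, which hydrates urocanate, read 13.00 and 10.98 in wildtype and 12.46 and 11.48 in YAP-KO. Amdhd1, which opens the imidazolone ring, read 13.56 and 10.89 against 12.77 and 12.00. Ftcd, which passes the last carbon of histidine to folate, read 12.32 and 11.09 against 11.85 and 11.78. The differences in wildtype ran from -4.16 to -1.23, and each was larger than that of the same gene in YAP-KO.

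All 6 genes of tryptophan breakdown were at least 2-fold lower at 24 h in wildtype (median -2.43), and Afmid alone was in YAP-KO (median -0.65). After quantile normalization Kynu (-1.04) and Haao (-1.01) were also 2-fold lower in YAP-KO, and the YAP-KO median was -0.999. Tdo2, the dioxygenase that opens the indole ring, read 19.11 and 17.01 in wildtype at 0 h and 24 h and 18.71 and 18.18 in YAP-KO. Afmid, the formamidase that yields kynurenine, read 9.75 and 7.18 against 9.30 and 7.94. Kmo, which hydroxylates kynurenine, read 14.76 and 12.47 against 14.46 and 13.80. These 3 genes had wildtype differences between -2.57 and -2.10. Kynu, which cleaves kynurenine and its hydroxylated form, read 14.39 and 10.02 in wildtype and 13.45 and 12.59 in YAP-KO. At 20.7-fold lower it had the lowest wildtype difference of the 41 genes, with 28 of 18380 genes lower still, and its 24 h reading was 2.57 higher in YAP-KO than in wildtype. Haao, which leads toward quinolinate and NAD, read 14.80 and 11.80 against 14.68 and 14.05. Acmsd, which diverts the same intermediate away from NAD, read 8.85 and 7.34 in wildtype and 8.39 and 8.69 in YAP-KO, the highest YAP-KO response of the 41 genes at 0.30.

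Of the tyrosine genes, 4 of 5 were at least 2-fold lower at 24 h in wildtype (median -1.70) and 1 of 5 in YAP-KO (median -0.33). Tat, the aminotransferase that starts the path, was at the upper limit on 3 arrays and read 19.30 on the wildtype 24 h array, at least 0.56 below wildtype at 0 h. The YAP-KO difference of Tat could not be read, so whether Tat was 2-fold lower is unknown in both genotypes. Hpd, which makes homogentisate, read 17.73 and 15.69 in wildtype and 17.32 and 16.66 in YAP-KO. Hgd, which opens the ring of homogentisate, read 17.27 and 14.01 against 16.85 and 15.81. Tat aside, Hgd had the largest difference of the path in both genotypes, -3.26 and -1.04. Gstz1, the isomerase that follows, read 16.16 and 14.66 against 15.89 and 15.67. Fah, which splits fumarylacetoacetate, read 16.50 and 14.80 against 16.35 and 16.02.

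Sulfur amino acid genes differed in size of response. Mat1a, which makes S-adenosylmethionine, stayed between 18.48 and 19.05. Ahcy, which hydrolyses S-adenosylhomocysteine, differed by -0.32 in wildtype and -0.74 in YAP-KO, and by -0.46 and -0.68 on a second probe set. Gnmt, which uses the methyl group of S-adenosylmethionine to make sarcosine, read 16.49 and 14.97 in wildtype and 16.20 and 15.29 in YAP-KO. Bhmt remethylates homocysteine with betaine. It read 18.42 and 17.26 against 17.92 and 17.16, and its second probe set gave -1.31 and -0.72, beside -1.16 and -0.76. Cbs, which commits homocysteine to cystathionine, read 13.59 and 11.96 in wildtype but 13.44 and 13.37 in YAP-KO. Cth, the next enzyme, which releases cysteine, read 16.28 and 13.18 in wildtype and 15.65 and 13.55 in YAP-KO. These neighbours in 1 path had unlike patterns: the Cbs difference was -1.63 in wildtype and -0.07 in YAP-KO, whereas Cth was at -3.10 and -2.10, the lowest YAP-KO response of the 41 genes.

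Genes of glycine, sarcosine and glyoxylate were mixed. Gldc, the decarboxylase of the glycine cleavage system, read 11.62 and 11.46 in wildtype at 0 h and 24 h and 10.85 and 10.78 in YAP-KO, so its readings followed genotype and not time. Amt, the aminomethyltransferase of the same system, read 9.54 and 7.80 against 8.92 and 8.97. Sardh, which oxidises sarcosine to glycine, read 11.47 and 9.75 in wildtype and 11.93 and 10.73 in YAP-KO. It was lower at 24 h in both genotypes and higher in YAP-KO at both times. Dmgdh, which makes sarcosine from dimethylglycine, read 14.81 and 13.30 against 14.54 and 14.00. Agxt, which transaminates glyoxylate, had differences of -0.67 and -0.64.

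Proline, lysine, branched-chain and pyrimidine genes were lower in wildtype at 24 h throughout. Prodh, which oxidises proline, read 10.85 and 7.57 in wildtype and 10.12 and 8.15 in YAP-KO, differences of -3.28 and -1.97. Prodh2, which acts on hydroxyproline, read 10.95 and 9.65 against 10.47 and 10.51. Aldh4a1, which acts downstream of both enzymes, read 10.35 and 8.17 against 10.47 and 9.64. Aass, the bifunctional enzyme that opens lysine breakdown, read 15.00 and 13.56 in wildtype and 14.79 and 13.56 in YAP-KO, so the genotypes ended at the same reading. Bckdha and Bckdhb encode subunits of the branched-chain keto acid dehydrogenase. Bckdha read 11.14 and 9.12 against 10.53 and 10.22, and Bckdhb read 11.84 and 10.87 against 11.50 and 11.47. Dpys and Upb1 act in succession on dihydropyrimidines, toward beta-alanine. Dpys read 12.12 and 9.59 against 11.40 and 10.72, and Upb1 read 11.41 and 10.04 against 11.24 and 11.37.

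**Figure D1:**
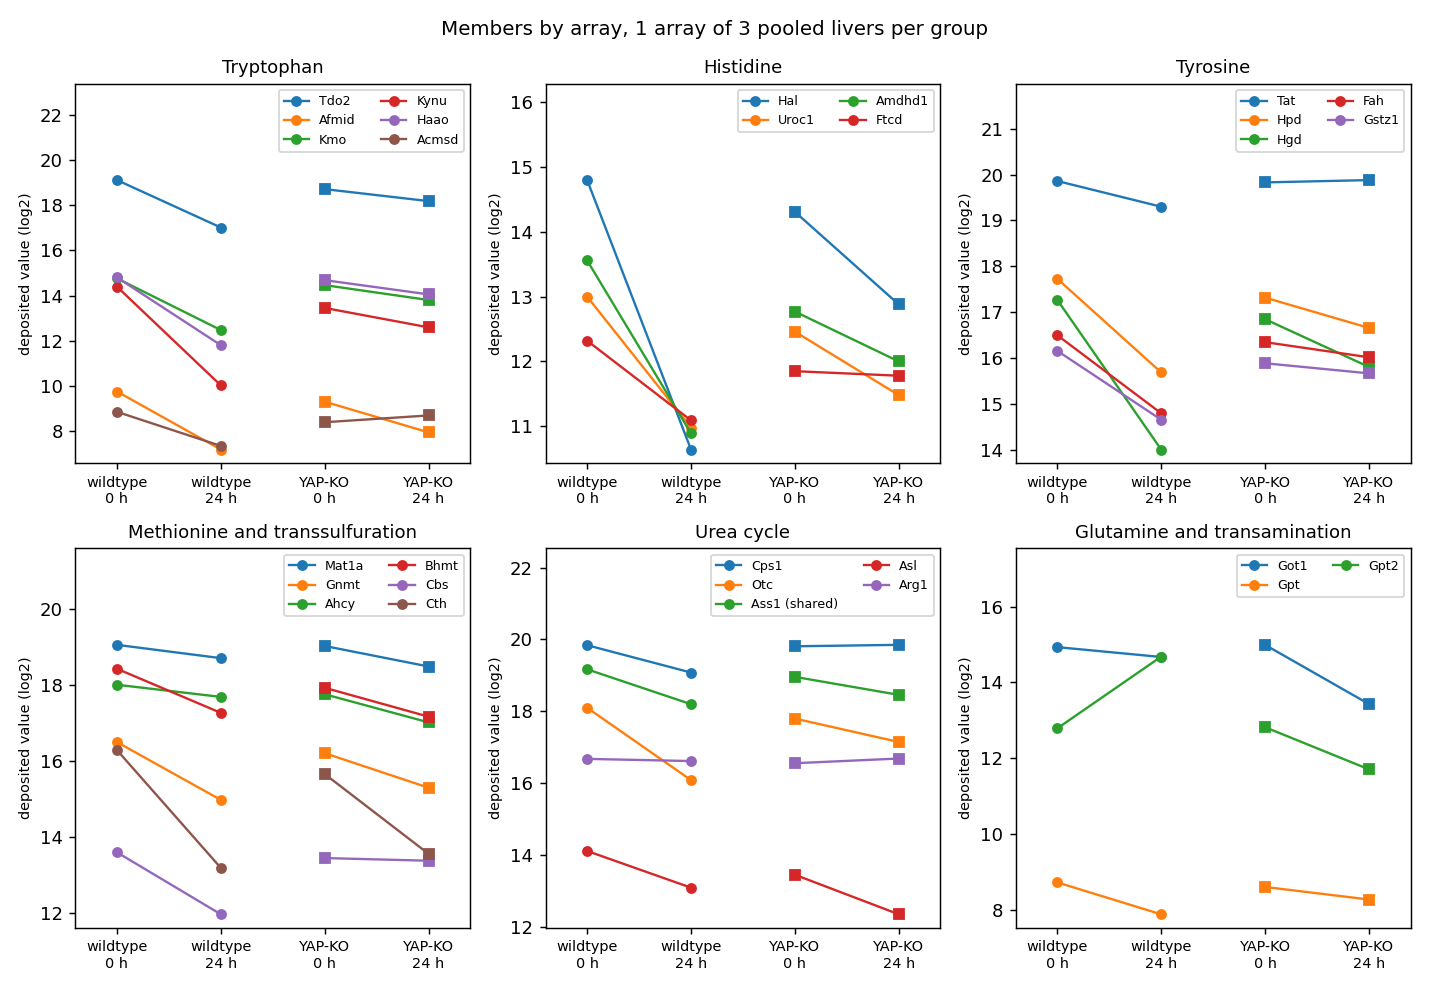
Deposited log2 value (vertical axis) of the genes of 6 pathways on the 4 arrays (horizontal axis), with circles for wildtype and squares for YAP-KO and lines joining 0 h to 24 h within a genotype; each point is 1 array of 3 pooled livers, without error bars, and heights are not comparable between genes. Kynu drops from 14.39 to 10.02 in wildtype, Arg1 stays near its 0 h reading, and Gpt2 goes from 12.79 to 14.68 in wildtype and from 12.82 to 11.71 in YAP-KO.

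Set side by side, 40 of the 41 genes were below 0 in wildtype (44.6% of all genes) and 34 in YAP-KO (40.3%), and the size differed. Of the 30 genes 2-fold lower in wildtype, 8 were also 2-fold lower in YAP-KO (26.7%), and 29 had a smaller difference there (96.7%). Of all 1088 genes that were 2-fold lower in wildtype, 21.2% were also 2-fold lower in YAP-KO and 96.8% had a smaller difference there, so these shares are near those of any genes chosen by their wildtype value, a choice that favours a larger wildtype difference. The YAP-KO difference, as a percentage of the wildtype one on the log2 scale, had a median of 30.4 over the 30 genes and of 28.6 over the 1088. It lay below 25 for 11 of the 30 (36.7%, against 45.2% of the 1088). It was at or above 50 for 8 genes (26.7%, against 22.5%), which were Asl, Sardh, Afmid, Aass, Gnmt, Bhmt, Cth and Prodh. In 4 of the 30, Amt, Acmsd, Prodh2 and Upb1, the YAP-KO reading at 24 h was at or above that at 0 h (13.3%, against 18.8%). The wildtype 24 h array gave the lowest of the 4 readings for 32 of 41 genes (78.0%), against 29.2% of all genes, and the YAP-KO 24 h array for 7 (17.1%), against 15.8%.

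**Figure D2:**
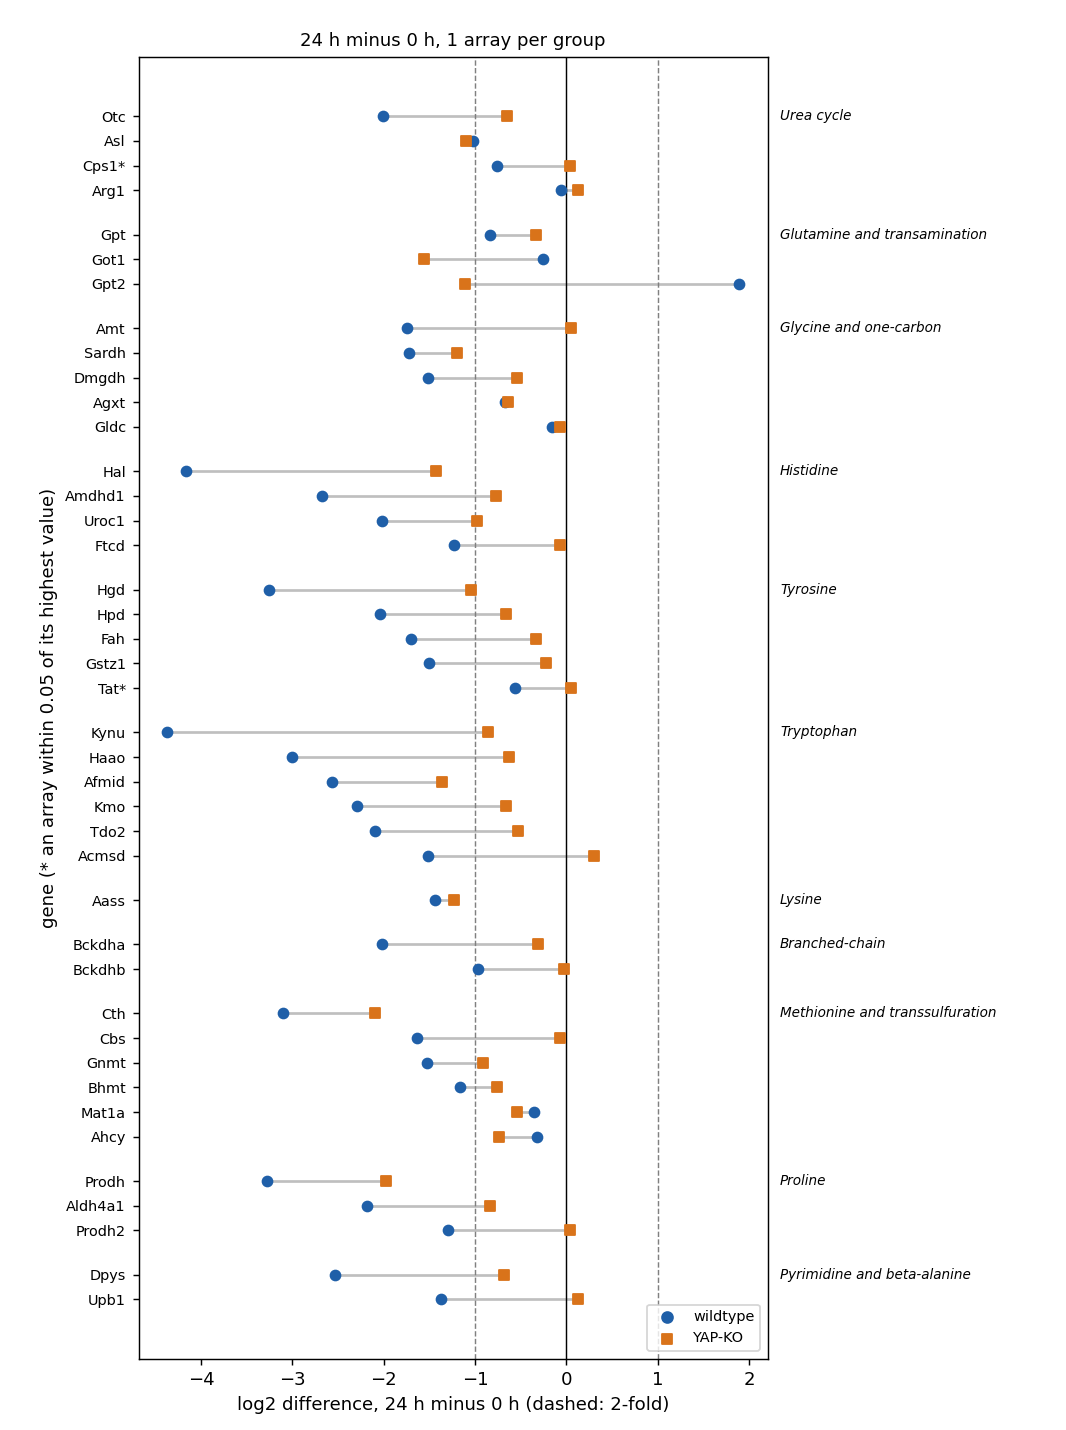
Log2 difference between the 24 h and the 0 h array (horizontal axis) for each of the 41 genes (vertical axis), grouped by pathway, in wildtype (blue circles) and YAP-KO (orange squares), from 1 array per group without error bars; dashed lines mark 2-fold, and asterisks mark Tat and Cps1, whose points start from readings at or near the upper limit. In wildtype 30 genes lie at or left of the lower 2-fold line, in YAP-KO 10 do, and Gpt2 lies on opposite sides of 0.

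Before the overdose the genotypes differed by less than 2-fold in each of the 41 genes, mostly with YAP-KO lower. At 0 h, 0 of the 41 genes differed 2-fold, against 0.881% of all genes lower and 1.01% higher in YAP-KO. These shares are so small that a count of 0 does not set the 41 genes apart. At 1.5-fold, 9 of the 41 were lower in YAP-KO and 0 higher, against 894 and 632 of all 18380 genes. The differences ran from -0.94 (Kynu) to 0.46 (Sardh) with a median of -0.30, beside -0.03 over all genes. Of the 41, 36 were below 0, against 53.6% of all genes. The YAP-KO 0 h array had thus the lower reading for most of the set. With the 0 h arrays exchanged between genotypes, 16 genes in place of 10 were 2-fold lower in YAP-KO at 24 h, against 3.05% of all genes, and 26 in place of 30 in wildtype, against 4.72%.

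At 24 h the order was the other way for most genes. Of the 41, 17 had a YAP-KO reading 2-fold or more above wildtype, against 3.25% of all genes, and 2 had one as far below, against 5.75%. Quantile normalization gave 20 and 2, against 4.10% and 4.33% of all genes. Among the 5383 genes at least as bright as the dimmest member, the shares without quantile normalization were 8.38% above and 10.8% below. The median was 0.77, beside -0.02 over all genes, and 33 of 41 were above 0 (80.5%, against 46.9% of all genes). The largest values were those of Kynu (2.57), Haao (2.25) and Hal (2.24), followed by Hgd (1.80), Aldh4a1 (1.47) and Cbs (1.41). By pathway, the 17 included 5 of 6 tryptophan genes, 3 of 5 tyrosine genes, 2 of 4 histidine genes and 2 of 2 pyrimidine genes. Below 0 were Gpt2, Got1, Asl (-0.74), Gldc (-0.68), Ahcy (-0.67), Mat1a (-0.22) and Bhmt (-0.10). The responses differed by 2-fold or more, toward YAP-KO, for 24 genes, against 5.69% of all genes, and the other way for 2, against 7.51%. Among the 5383 bright genes these shares were 11.6% and 12.3%. The count of 24 shares its arrays with the counts above and adds no separate evidence. The difference of responses could not be tested with 1 array per group.

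**Figure D3:**
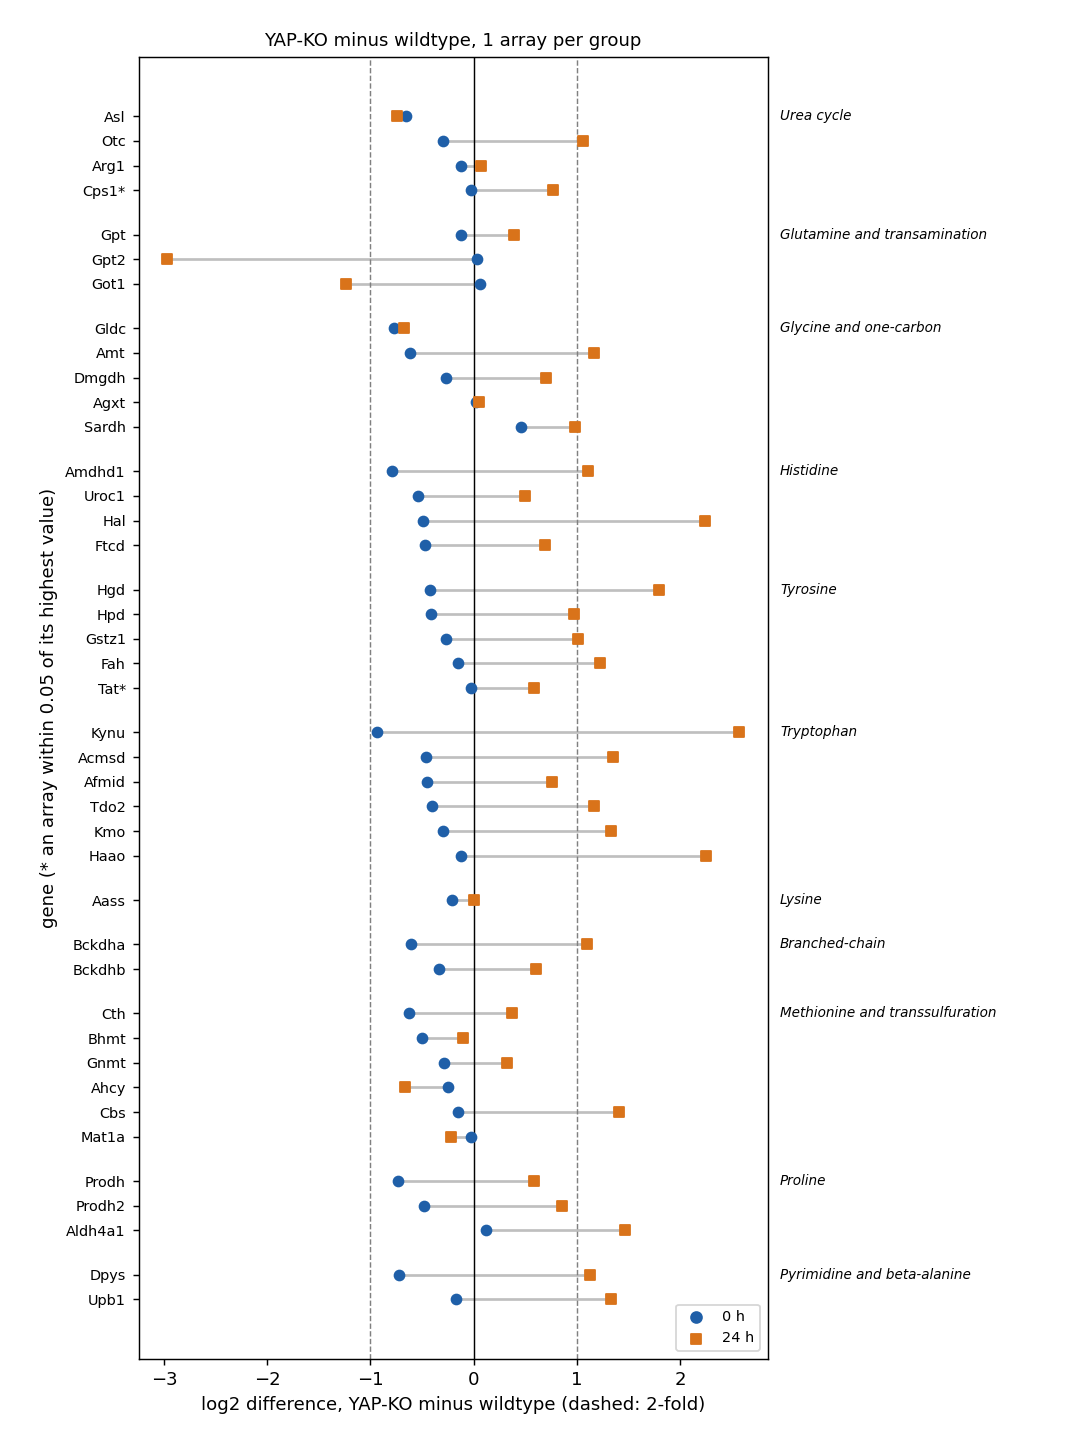
Log2 difference between YAP-KO and wildtype (horizontal axis) for each of the 41 genes (vertical axis), grouped by pathway, at 0 h (blue circles) and at 24 h (orange squares), from 1 array per group without error bars; dashed lines mark 2-fold, and asterisks mark Tat and Cps1, whose points start from readings at or near the upper limit. No gene reaches 2-fold at 0 h, 17 do so on the right and 2 on the left at 24 h, and Gpt2 lies farthest left at -2.97.

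A second list held other genes of amino acid breakdown. Of 59 listed, 49 were measured, and 33 of these were at least 2-fold lower in wildtype at 24 h, against 5.92% of all genes, and 1 higher, against 12.7% (median -1.66). In YAP-KO 9 were lower, against 2.22%, and 1 higher, against 4.72% (median -0.45). The lowest in wildtype were Oat, the aminotransferase of ornithine (-6.23, and -4.16 in YAP-KO), and Suox, the sulfite oxidase (-3.48 and -1.63). Aadat, which transaminates kynurenine and aminoadipate, was at -3.28 and -1.46, and Ido2, a further tryptophan dioxygenase, at -3.19 and -0.50. Ppm1k, the phosphatase that activates the branched-chain dehydrogenase, was at -3.12 and 0.21. Etnppl, a phospholyase of phosphoethanolamine, was at -2.88 and -3.74. Arg2, the second arginase, was the gene on the higher side in wildtype (1.29, from 4.79 to 6.08), and Bckdk, the kinase that opposes Ppm1k, in YAP-KO (1.09, from 5.69 to 6.78).

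**Figure D4:**
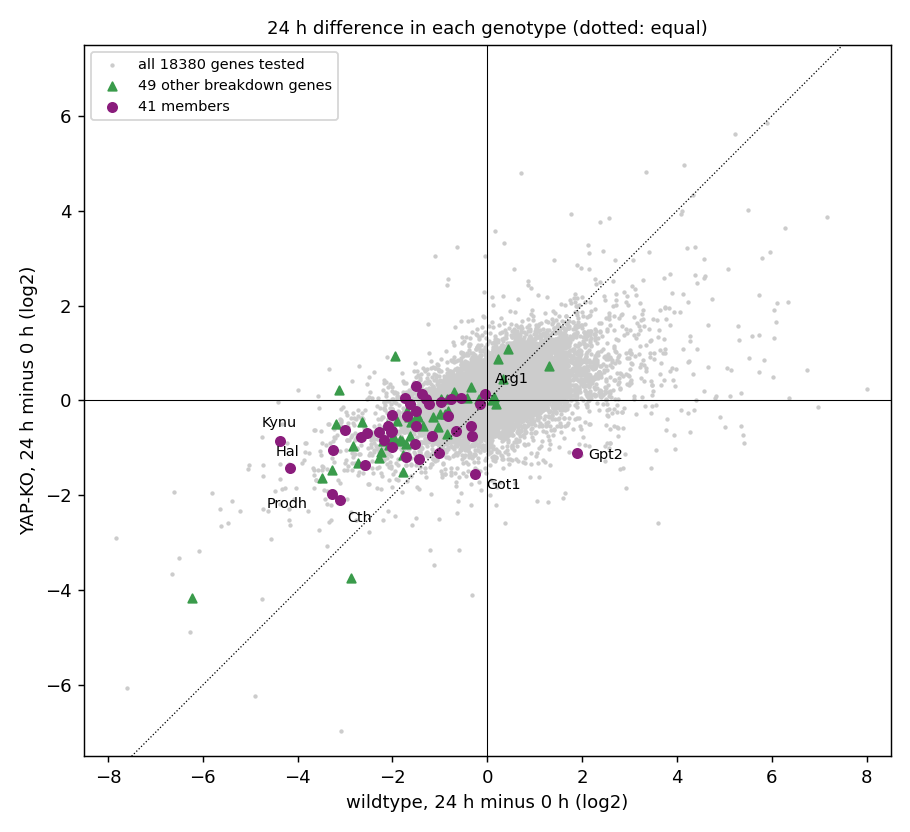
Log2 difference between 24 h and 0 h in wildtype (horizontal axis) against that in YAP-KO (vertical axis), for all 18380 genes (grey), the 41 genes of the set (purple circles) and 49 other breakdown genes (green triangles), 1 array per group; the dotted line marks equal differences. Most coloured points lie left of 0 and above the dotted line, and Gpt2 stands apart at 1.89 and -1.11.

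Among 13 measured amino acid transporters, 7 were at least 2-fold lower in wildtype, against 5.92% of all genes, and 1 higher, against 12.7% (median -1.24). In YAP-KO 2 were lower, against 2.22%, and 2 higher, against 4.72% (median -0.44). Slc1a2, a glutamate transporter of hepatocytes around the central vein, read 11.92 and 4.32 in wildtype and 11.40 and 5.34 in YAP-KO, and its wildtype 24 h reading lay at the filter level. Slc7a11, the cystine importer, went from 4.26 to 9.57 in wildtype and from 4.20 to 5.47 in YAP-KO. The aromatic amino acid transporter Slc16a10 differed by -3.38 and -1.90, and the arginine transporter Slc7a2 by -1.55 and -0.65. Slc38a3 and Slc38a4, of the sodium-coupled neutral family, were both at -1.30 in wildtype, and at 0.04 and -0.14 in YAP-KO. Slc3a1, a subunit of the transporter of cystine and basic amino acids, went from 12.56 to 11.31 in wildtype and from 12.61 to 14.22 in YAP-KO.

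Known regulators of these genes had smaller differences as a list. Of 13 measured, 3 (23.1%) were 2-fold lower in wildtype and 2 (15.4%) in YAP-KO, against 5.92% and 2.22% of all genes. As far higher were 0 in each genotype, against 12.7% and 4.72%. The medians were -0.46 and -0.26. Cebpa, a hepatocyte transcription factor, read 12.94 and 10.51 in wildtype and 12.78 and 11.50 in YAP-KO. Klf15, a factor known to promote amino acid breakdown in fasting, read 10.43 and 8.57 against 10.30 and 9.98. The glucagon receptor gene Gcgr read 10.04 and 8.68 against 9.85 and 9.73. These 3 genes were lower by more in wildtype. Foxa1 was at -0.92 and -0.81, and Hnf4a was at -0.90 in wildtype and -1.45 in YAP-KO, where its 0 h reading of 13.09 was the highest of the 4. Ppargc1a, a coactivator of the fasting response, read 8.60 and 7.70 in wildtype and 7.45 and 7.94 in YAP-KO.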

How the data were processed

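Per the labels, total RNA was extracted with Trizol from 100 mg of liver, pooled from 3 mice per array and labelled with biotin by the GeneChip WT Plus kit. The deposited values, 1 per probe set for 65956 probe sets, are taken as log2 from their range (2.24 to 19.93). The summarisation, background correction, normalization and genome build are not given in the sources used here. Array medians were 4.47 and 4.32 for wildtype at 0 h and 24 h, and 4.46 and 4.36 for YAP-KO. No detection calls were used. The number of arrays, 1 per group, limits the precision of every value.

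Gene names came from GEO's platform annotation, with symbols updated by Entrez identifier to RefSeq: 31080 carried 1 gene, 1670 several and 33206 none. The probe set with the highest mean was taken per gene, and genes whose mean reached the 40th percentile (4.32) entered the comparisons. The 41 measured genes include 14 with a mitochondrial product. Members, pathways, other lists and markers were chosen with earlier results of these data known. All 45 members are accounted for. From each other list, the 6 genes with the largest wildtype difference are named, together with genes that moved 2-fold in opposite directions; Arg2 and Bckdk were named after their values were seen.

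Differences were taken between arrays (Python 3.11.15, pandas 2.3.3). An additive fit was made with limma 3.58.1 in R 4.3.3 over 18380 genes. In data simulated for 24 h against 0 h over those genes (20 runs, 200 changed genes each), it recovered 0.4% of genes changed by 2 log2 units, 72.9% at 4 and 95.6% at 8, and called 7 unchanged genes in the median run. Simulated sizes did not differ between genotypes. Alternatives were quantile normalization, centring, the mean of probe sets, other filters, leaving out genes near the upper limit and the other genotype's 0 h array as baseline.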

Additional observations from a re-analysis of the deposited data

Results flagged for a closer look

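In 3 genes the genotypes went in opposite directions between 0 h and 24 h by at least 1.5-fold each, and in none of the 3 was the difference tested, since each group is 1 array. Gpt2, the mitochondrial alanine aminotransferase, differed by 1.89 in wildtype and -1.11 in YAP-KO, a difference of responses of -3.0. Csad, which makes hypotaurine from cysteine sulfinate, differed by -1.95 in wildtype and 0.94 in YAP-KO, a difference of responses of 2.89. For Slc3a1, the cystine and basic amino acid transporter subunit, the values were -1.25 and 1.61, a difference of responses of 2.86.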

How the results depend on the processing

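No paired analysis was possible because each group has 1 array and the labels number all of them replicate 1. The additive fit called 0 members under each of its 7 alternatives, with the lowest adjusted limma p among members between 0.244 and 0.337 for 24 h against 0 h. No 2-fold difference of a member changed sign under any alternative. After quantile normalization the medians over members moved to -1.82 (wildtype response), -0.83 (YAP-KO response), 0.88 (YAP-KO minus wildtype at 24 h) and 1.32 (difference of responses). Without Cps1 and Tat, an alternative added after the data were seen, the wildtype median was -1.63. With the other genotype's 0 h array as baseline, the wildtype median was -1.23 and the YAP-KO median -0.92, 16 members were 2-fold lower in YAP-KO (3.05% of all genes) and 26 in wildtype (4.72%), and 4 pathways in place of 2 had a median at least 2-fold lower there. Centring, the mean of probe sets, both other filters and leaving out Tat alone kept every count within 1.5 times and every median over members within 0.1. The upper limit of the arrays hides any difference above it, for Tat and Cps1 above all, and the lack of detection calls leaves the floor unknown.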

Other observations

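Genes whose products work in mitochondria and the other genes are given side by side, and their difference was not tested. Of 14 mitochondrial genes, 10 were at least 2-fold lower at 24 h in wildtype (median -1.62), against 5.92% of all genes, and 4 in YAP-KO (median -0.60), against 2.22%. Of the 27 other genes, 20 were lower in wildtype (median -1.52) and 6 in YAP-KO (median -0.66).

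Some members are direct neighbours among the protein-coding genes of the RefSeq annotation. Hal and Amdhd1, both of histidine breakdown, lie side by side on chromosome 10, with wildtype differences of -4.16 and -2.67. Bhmt, its relative Bhmt2 and Dmgdh, which acts on the dimethylglycine that Bhmt produces, follow each other on chromosome 13. Their wildtype differences were -1.16, -1.69 and -1.51, and their YAP-KO differences -0.76, -0.22 and -0.54.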
